A study of Mus musculus with 18 samples.

Results

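Arginine is split between enzymes that compete for it and enzymes that remake it, and 9 genes of these routes were read in 18 mouse tumors. They are Arg1, Nos1, Nos2, Nos3, Ass1, Asl, Otc, Oat and Odc1, which were picked by symbol from the 768 genes of a NanoString metabolic pathways panel. TUBO, a cell line of mouse mammary carcinoma driven by HER2/neu, was grown as tumors in female mice of the BALB/c strain, for which the labels name no engineered allele. Every sample is titled as a treated or an untreated tumor of a mouse in 1 of 4 arms: untreated control, HER2 DC1 (dendritic cells put into the tumor), an anti-semaphorin 4D blocking antibody, or both agents, called the combination here. Treatment lasted 3 weeks, and tumors were taken at 1 time point and frozen. The combination has 3 samples for each kind of tumor, and every other group has 2. The labels do not say which tumor of a control mouse counted as treated, nor whether each sample is a mouse of its own, and p-values therefore measure only how these samples spread, which may be technical.

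As background, arginase 1 cleaves arginine to ornithine and urea, and the nitric oxide synthases turn arginine into citrulline and nitric oxide. Argininosuccinate synthase and argininosuccinate lyase rebuild arginine from citrulline, and ornithine transcarbamylase makes citrulline from ornithine in liver and gut. Ornithine also feeds proline and glutamate through ornithine aminotransferase and polyamines through ornithine decarboxylase. In mouse tumors, macrophages and other myeloid cells are known sources of arginase 1 and of the inducible nitric oxide synthase.

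Values are log2(scaled count + 1) as deposited, and errors are SD over the samples of a group unless named SE. Each sample has a limit, set 2 SD above the mean of its 8 negative probes and multiplied by the factor that scales its column. These limits lay between 4.95 and 5.85, and without the factor between 4.37 and 5.75. A gene at or below the limit is called dim. Per sample, between 518 and 609 of the 768 genes and between 5 and 7 of the 9 members were above the limit. Arg1, Ass1, Asl, Oat and Odc1 were above it in all 18 samples, Nos1 in 10, Nos2 in 3, Nos3 in 1 and Otc in 0. Panel counts before scaling ran from 596176 to 989309 in 16 samples, but only to 203509 in untreated-tumor control replicate 2 and 238079 in untreated-tumor HER2 DC1 replicate 1. In 6 of the 18 columns, replicate 1 of both controls and replicate 2 of both HER2 DC1 and both antibody groups, the values are whole numbers, and whether these are counts or rounded scaled counts is not settled. All 6 combination samples are in the other, scaled columns. The samples are bulk tissue, so more cells of a type and more RNA per cell cannot be told apart.

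**Figure D1:**
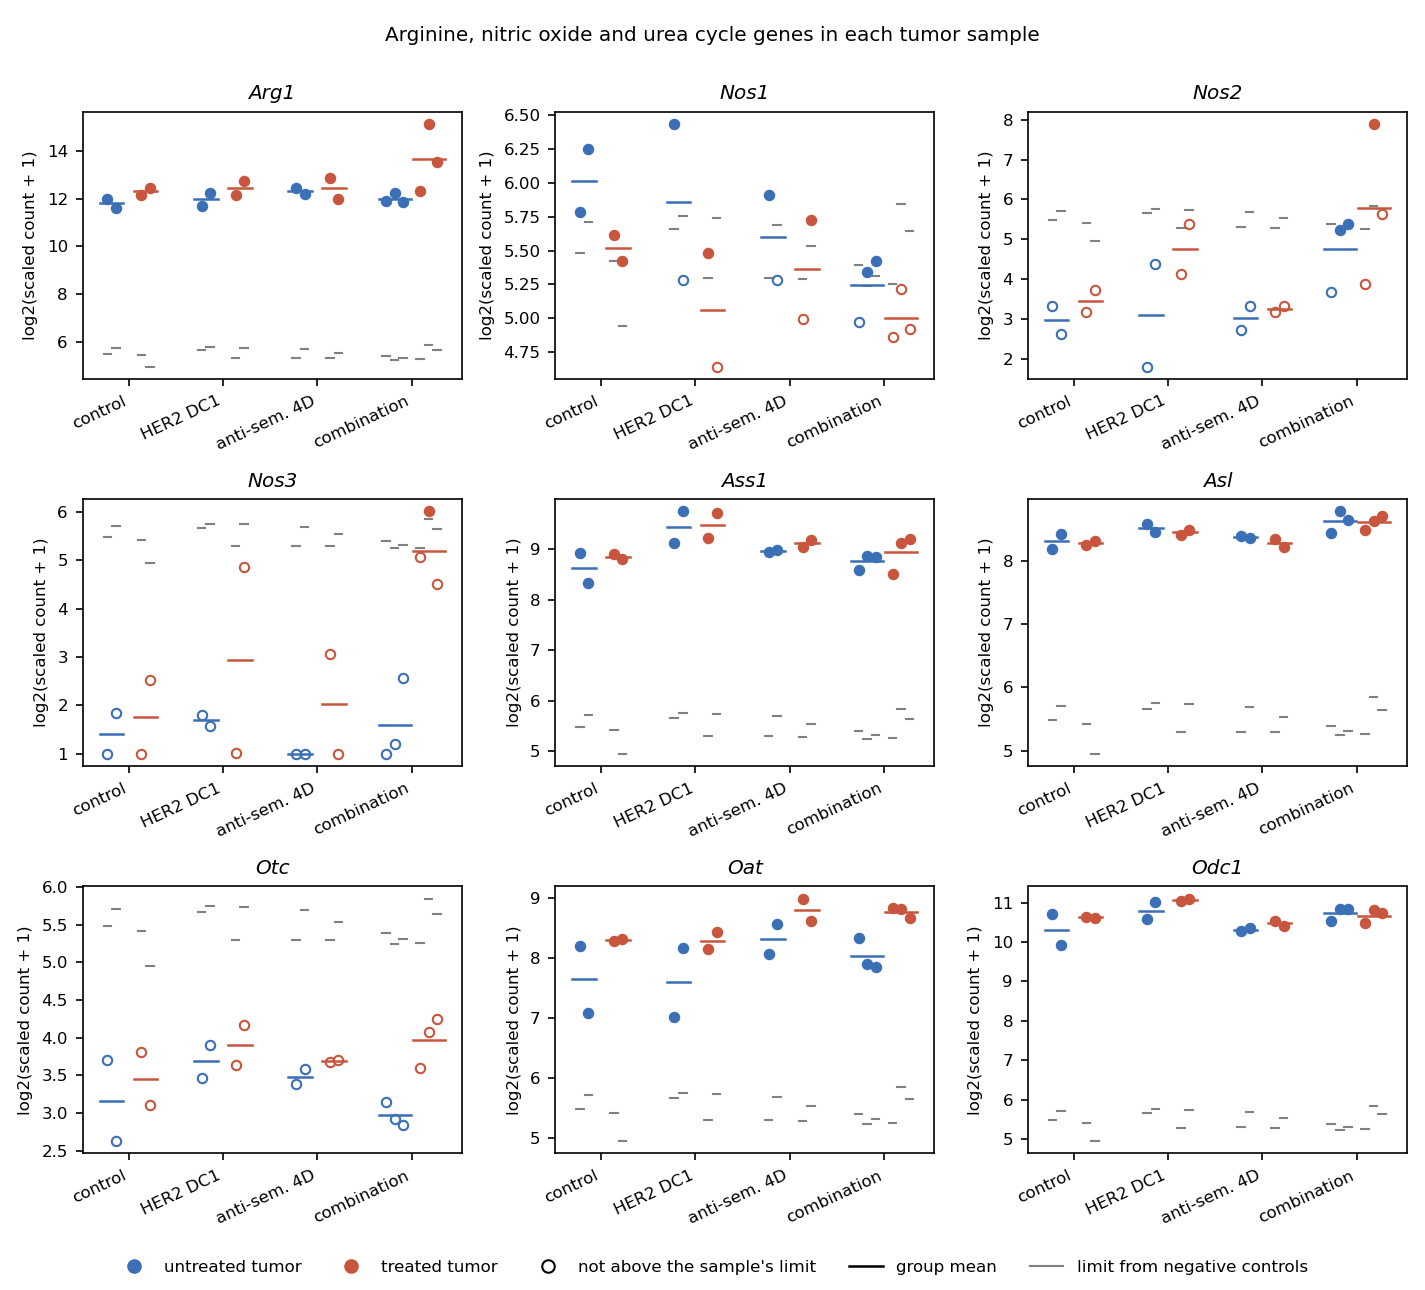
Value of each of the 9 genes in all 18 samples, as log2(scaled count + 1), by arm on the horizontal axis and with the untreated tumor in blue and the treated tumor in red. Points are samples (open where not above the limit), coloured lines are group means and short grey lines are each sample's limit. Arg1 reached 15.15 and 13.56 in 2 treated tumors of the combination, while Otc stayed under the limit in every sample.

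The comparisons between arms ask what each agent and their combination did to these transcripts. Of the 9 genes only Nos3 passed for the combination set against control in treated tumors (adjusted p under 0.05 in limma), while 38.8% of the 768 genes did. At an unadjusted p under 0.05 it was Arg1, Nos2 and Nos3, 3 of 9 against 47.7%. In untreated tumors, 0 of the 9 passed that comparison against 16.8% of all genes, and at an unadjusted p under 0.05 it was 0 of the 9 against 37.9%. The median difference of the 9 was 0.47 in treated and 0.18 in untreated tumors, against 0.54 and 0.45 over all genes. For HER2 DC1 alone and the antibody alone against control, 0 of the 9 passed in either kind of tumor. In each of these 4 comparisons 0% of all genes were called. At an unadjusted p under 0.05, limma gave 14.2% and 9.11% of the 768 genes for HER2 DC1 in treated and untreated tumors, and of the members Ass1 in untreated tumors alone. For the antibody it gave 1.43% and 3.26% of all genes and 0 of the 9.

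The combination was also set against each agent. Against the antibody in treated tumors 1 of the 9 genes, again Nos3, passed, with 36.8% of all genes called, and in untreated tumors 0 of the 9 passed, with 12.5% called. Against HER2 DC1, 0 of the 9 passed in treated tumors, where 1.82% of all genes were called, and 0 in untreated tumors, where 0% were called. At an unadjusted p under 0.05, limma gave Nos3 against HER2 DC1 in treated tumors (26.7% of all genes), Ass1 and Otc against HER2 DC1 in untreated tumors (17.7%), Nos2 and Nos3 against the antibody in treated tumors (47.1%) and 0 of the 9 against it in untreated tumors (30.1%). All these comparisons share samples with those against control.

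Treated and untreated tumors of the same arm were compared last. In the combination arm Nos3 and Otc passed, 2 of 9 against 9.11% of all genes, and both lie near or under the limit. Arg1, Nos3, Otc and Oat had an unadjusted p under 0.05 there, 4 of 9 against 31.2%. In the HER2 DC1, antibody and control arms, 0 of the 9 passed and 0% of all genes were called, and 0 of the 9 had an unadjusted p under 0.05, against 13.0%, 1.82% and 6.51% of all genes (limma). Tests of whether an arm's difference from control differed between the kinds of tumor called 0 of the 9 and 0% of all genes. So did those of whether the combination departed from the sum of its agents' differences from control, taken in log2 units. At an unadjusted p under 0.05, limma gave Nos3 for the combination's difference between the kinds of tumor (10.5% of all genes) and 0 of the 9 for those of HER2 DC1 (1.30%) and the antibody (1.17%). For the departure from the sum it gave 0 of the 9 in treated tumors (8.98%) and Ass1 in untreated tumors (6.90%).

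Groups of 2 or 3 samples often fail to overlap, so the members are set beside all genes here too. For the combination against control, 5 of the 9 genes did not overlap in treated tumors (Nos1, Nos2, Nos3, Asl and Oat; 66.3% of all genes) and 3 in untreated tumors (55.7%). HER2 DC1 and control did not overlap for 4 genes in treated tumors (Nos2, Ass1, Asl and Odc1; 57.9%) and 2 in untreated tumors (34.1%), and the antibody and control for 3 (33.3%) and 2 (31.9%). The combination stood apart from HER2 DC1 for 3 genes in treated tumors (Ass1, Oat and Odc1; 42.3%) and for Ass1 and Otc in untreated tumors (31.2%), and from the antibody for 3 (59.9%) and 5 (61.2%). Treated and untreated tumors did not overlap for 4 genes in the combination (Arg1, Nos3, Otc and Oat; 31.6%), 1 under HER2 DC1 (Odc1; 40.1%), 5 under the antibody (36.3%) and 3 in control (Arg1, Nos1 and Oat; 43.9%).

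**Figure D2:**
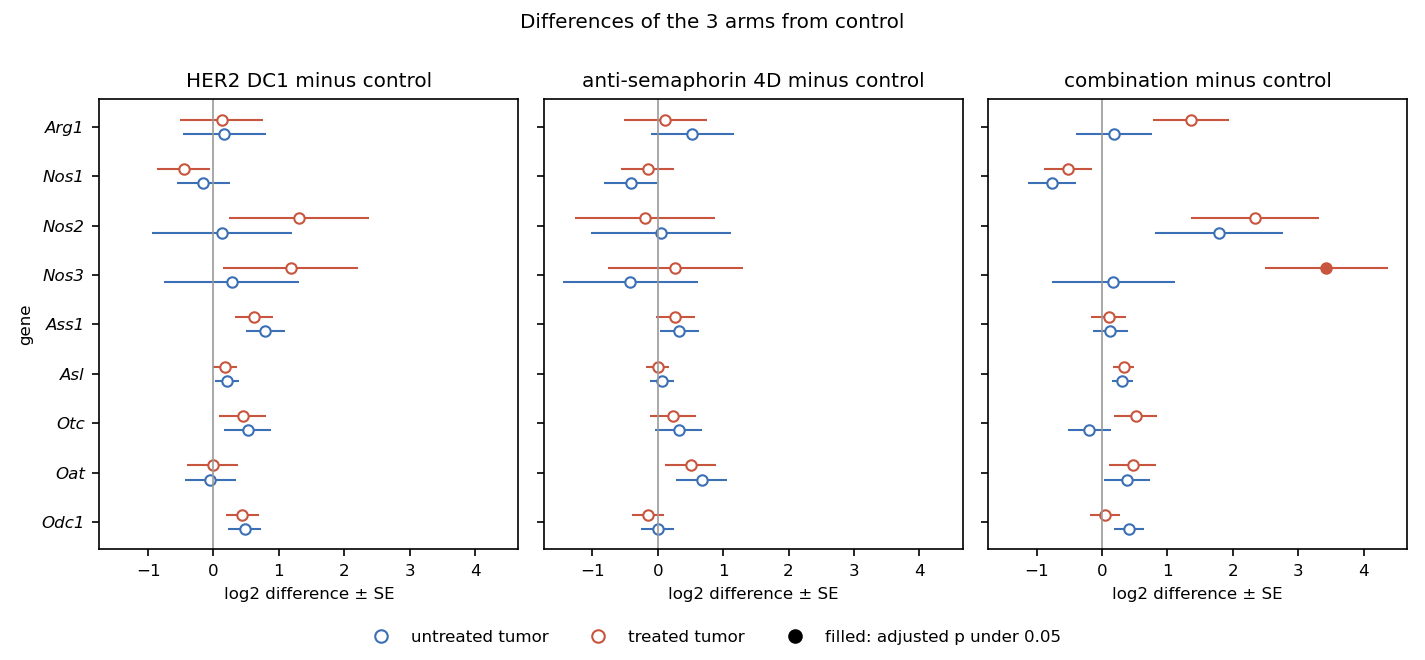
Difference of each arm from control in log2 units, with bars of 1 SE from the fit over all 18 samples, in untreated (blue) and treated (red) tumors. The filled point is the only difference with an adjusted p under 0.05, that of Nos3 under the combination in treated tumors (3.43), and the differences of Asl stayed between -0.002 and 0.33.

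Arg1 (chr10:24915207-24927470, GRCm38.p6), the arginase of the urea cycle and of myeloid cells, lay between 11.62 and 15.15 over all samples, with a median of 12.23. In untreated tumors it read 12.01 and 11.62 in control, 11.70 and 12.26 under HER2 DC1, 12.47 and 12.22 under the antibody, and 11.90, 12.24 and 11.85 under the combination. In treated tumors it read 12.18 and 12.47 in control, 12.15 and 12.75 under HER2 DC1, 12.88 and 12.01 under the antibody, and 12.35, 15.15 and 13.56 under the combination. Replicates 2 and 3 of the treated-tumor combination were thus the 2 highest of the 18 samples, and replicate 1 lay among the controls. In counts before scaling these 3 samples gave 32232 for replicate 2, 12746 for replicate 3 and 6115 for replicate 1. The 2 lowest Arg1 values, 11.62 and 11.70, belonged to the 2 samples with the fewest counts. The other 16 lay between 11.85 and 15.15, and the part of depth in the Arg1 values was not tested.

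The treated-tumor combination averaged 13.69 ± 1.41 (n = 3) for Arg1 against 12.32 ± 0.21 (n = 2) in control, a difference of 1.36 (SE 0.58), or 2.57-fold, that did not pass (limma, adjusted p = 0.0761). The call turned on which sample was kept: without replicate 1 of the combination the difference was 2.03 with adjusted p = 0.0038, and without replicate 2 it was 0.63 with adjusted p = 0.276. Against untreated tumors of the combination, which averaged 11.998 ± 0.21 (n = 3), the difference was 1.69 (SE 0.52), or 3.22-fold, with adjusted p = 0.0563. It passed at about the same size with a pseudocount of 16 (adjusted p = 0.0426), with trend and robust estimation of the spread (adjusted p = 0.0431) and with arm by number as a random block (adjusted p = 0.0217). The 3 treated and 3 untreated combination tumors did not overlap for Arg1, as for 31.6% of all genes. Without replicate 1 of the treated tumors this difference was 2.36 with adjusted p = 0.00227, and without replicate 2 it was 0.96 with adjusted p = 0.224. In untreated tumors the combination differed from control by 0.18 (SE 0.58, adjusted p = 0.851). In the order of the 8 group means, only the step up to the treated-tumor combination (1.24) was wider than the pooled SD within groups (0.70).

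Nos2 (chr11:78920787-78960226), the inducible nitric oxide synthase that activated macrophages are known to make, was mostly dim. In untreated tumors it read 3.32 and 2.62 in control, 1.81 and 4.39 under HER2 DC1, 2.73 and 3.32 under the antibody, and 3.67, 5.24 and 5.38 under the combination. In treated tumors it read 3.17 and 3.74 in control, 4.14 and 5.39 under HER2 DC1, 3.19 and 3.32 under the antibody, and 3.87, 7.89 and 5.62 under the combination. It was above the limit in replicates 2 and 3 of the untreated-tumor combination and in replicate 2 of the treated-tumor combination, so all 3 such samples came from the combination arm. The value of 7.89 stood for 209 counts before scaling, with an exact Poisson 95% interval of 182 to 239 that covers counting error only. The 2 lowest Nos2 values, 1.81 and 2.62, belonged to the 2 samples with the fewest counts. The other 16 lay between 2.73 and 7.89, and the part of depth in the Nos2 values was not tested.

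Under the combination Nos2 averaged 5.80 ± 2.02 (n = 3) in treated tumors, 1.53-fold over the limit of the dim control group, with replicates 1 and 3 dim themselves. The difference from control of 2.34 (SE 0.98) did not pass (limma, adjusted p = 0.0722). Without replicate 1 of the combination it was 3.30 with adjusted p = 0.0101, and without replicate 2 it was 1.29 with adjusted p = 0.282. In untreated tumors the combination averaged 4.77 ± 0.95 (n = 3) and exceeded control by 1.79 (SE 0.98, adjusted p = 0.195), with no fold given because the bound was under 1. The combination and control samples did not overlap for Nos2 in either kind of tumor, as for 66.3% of all genes in treated and 55.7% in untreated tumors. Against the antibody in treated tumors the difference was 2.54 (SE 0.98; limma, adjusted p = 0.0572), or 1.30-fold over the limit of the dim antibody group. Under HER2 DC1 alone, every sample of both kinds of tumor was dim for Nos2.

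Nos3 (chr5:24364816-24384474), the endothelial nitric oxide synthase, gave the only calls against control and against the antibody, with 17 of its 18 values at or under the limit. In untreated tumors it read 1.00 and 1.84 in control, 1.81 and 1.58 under HER2 DC1, 1.00 in each sample under the antibody, and 1.00, 1.21 and 2.57 under the combination. In treated tumors it read 1.00 and 2.53 in control, 1.03 and 4.86 under HER2 DC1, 3.06 and 1.00 under the antibody, and 5.06, 6.01 and 4.51 under the combination. A value of 1.00 is the lowest the table lists. The 3 treated combination tumors were above every sample of the other groups save the 4.86 of HER2 DC1 replicate 2, which exceeded the lowest of them, and only the 6.01 of replicate 2 was above its limit. These 3 samples held 38, 56 and 23 counts before scaling, while the 2 controls held 1 and 5.

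Nos3 rose under the combination in treated tumors, to 5.19 ± 0.76 (n = 3) from 1.76 ± 1.08 (n = 2) in control, a fitted difference of 3.43 (SE 0.94; limma, adjusted p = 0.0129). Set against the limit of the dim controls the combination mean was 1.01-fold higher, since the fitted size rests on a few counts. Combination replicates 1 and 3 were themselves under their limits (5.06 against 5.26 and 4.51 against 5.64), so this is not a lower bound. The call was lost without control replicate 1 (2.67, adjusted p = 0.134) and without combination replicate 2 (3.02, adjusted p = 0.0505). With only the scaled columns, which leave 1 control sample, the difference was 2.67. Against the antibody in treated tumors the difference was 3.16 (SE 0.94, adjusted p = 0.0199), and it was lost without antibody replicate 2 (2.13, adjusted p = 0.197) or combination replicate 2 (2.75, adjusted p = 0.0709), or with median centring (2.62, adjusted p = 0.0526). Against untreated tumors of the combination, at 1.59 ± 0.85 (n = 3), the difference was 3.60 (SE 0.84, adjusted p = 0.0241), with no fold because the bound was under 1. That call was lost without replicate 1 or 2 of the untreated tumors (3.30 and 3.41, adjusted p = 0.0916 and 0.086) or replicate 2 of the treated tumors (3.19, adjusted p = 0.112). The combination's difference from control was 3.26 larger (SE 1.33) in treated than in untreated tumors, with an unadjusted p of 0.0296 and an adjusted p of 0.448.

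Nos1 (chr5:117866839-117958840), the neuronal nitric oxide synthase, stayed within 0.77 of the limit wherever it was above it. In untreated tumors it read 5.78 and 6.25 in control, 6.43 and 5.29 under HER2 DC1, 5.91 and 5.29 under the antibody, and 4.97, 5.34 and 5.42 under the combination. In treated tumors it read 5.61 and 5.42 in control, 5.48 and 4.64 under HER2 DC1, 4.996 and 5.73 under the antibody, and 4.86, 5.22 and 4.92 under the combination. All 3 treated combination tumors were dim, and both controls of each kind of tumor were above the limit. The combination minus control was -0.52 (SE 0.36, adjusted p = 0.28) in treated and -0.77 (SE 0.36, adjusted p = 0.14) in untreated tumors. The groups did not overlap in either, as for 66.3% of all genes in treated and 55.7% in untreated tumors. The highest values, 6.25 and 6.43, belonged to the 2 samples with the fewest counts, and the other 16 reached at most 5.91. All 3 treated combination tumors, by contrast, held between 844996 and 909415 counts, and the part of depth in the Nos1 values was not tested.

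Replicate 2 of the treated-tumor combination stood out for Arg1, Nos2 and Nos3. It exceeded the mean of its 2 replicates by 2.20 for Arg1, 3.14 for Nos2 and 1.22 for Nos3, and by at most 0.32 for the other 6 genes. Over all genes it was the sample farthest out on the first principal component, at 37.7 against 22.7 and 13.5 for its replicates, and the lowest correlation within a group (0.928) was between it and replicate 1.

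Markers of other cells were higher too in treated tumors of the combination. Those said to rise passed against control, as did 38.8% of all genes, and the median difference over all genes was 0.54. Of 5 macrophage and monocyte markers on the panel, from a list of 12, 3 rose under the combination (Cd84, Cd68 and Cd163). Summed scaled counts of all 5 were 7826 to 11914 against 5532 to 7119 in control, where Cd163 was dim. Sums in this paragraph cover every marker of a list on the panel, called or not. The single endothelial marker measured, Flt1 of a list of 9, rose at least 4.02-fold to 53.7 to 404 scaled counts, from 24.7 to 30 in control, where it was dim. Of 10 T cell markers 7 rose, and all 10 summed to 275 to 291 in control and 858 to 2807 in the combination. Cd8a and Cd8b1 were dim in both groups. Among 4 neutrophil and mast cell markers 1 rose (Csf3r; summed 108 to 109 in control and 206 to 839 in the combination), while Mpo and Ms4a2 stayed dim in both groups. The only dendritic cell marker measured, Flt3, did not pass (17 to 29.5 and 23.9 to 67.9). Of 2 fibroblast markers 2 rose (99.0 to 103 and 731 to 2289), of 2 adipocyte markers 1 (55.0 to 106 and 101 to 550), of 2 skeletal muscle markers 1 (130 to 257 and 193 to 469), and the 1 epithelial marker, Egfr, rose 1.90-fold. The part of these cells in the values of Arg1, Nos2 and Nos3 was not tested.

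Ass1 (chr2:31470270-31520670), which joins citrulline and aspartate in the step that limits arginine synthesis, had its highest group means under HER2 DC1 alone in both kinds of tumor. The untreated tumors gave Ass1 values of 8.93 and 8.34 in control, 9.11 and 9.75 under HER2 DC1, 8.95 and 8.98 under the antibody, and 8.59, 8.86 and 8.84 under the combination. The treated tumors gave 8.90 and 8.80 in control, 9.22 and 9.72 under HER2 DC1, 9.05 and 9.19 under the antibody, and 8.51, 9.13 and 9.21 under the combination. All 4 samples given HER2 DC1 alone were above all 4 controls and, within each kind of tumor, above all 3 combination samples. HER2 DC1 exceeded control by 0.62 (SE 0.30), or 1.54-fold, in treated tumors and by 0.80 (SE 0.30), or 1.74-fold, in untreated tumors, and neither passed (limma, adjusted p = 0.362 and 0.516). HER2 DC1 and control did not overlap for 57.9% of all genes in treated and 34.1% in untreated tumors. The combination lay below HER2 DC1 by -0.52 (SE 0.27, adjusted p = 0.23) in treated and -0.67 (SE 0.27, adjusted p = 0.244) in untreated tumors, and within 0.13 of control in both. Against the antibody in treated tumors the combination differed by -0.17 (SE 0.27, adjusted p = 0.659), and with median centring by -0.71 (adjusted p = 0.022), which passed.

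Odc1 (chr12:17544808-17551502), ornithine decarboxylase, the first enzyme of polyamine synthesis, also had its highest means in the 2 HER2 DC1 groups, with the antibody groups near or below control. The untreated tumors gave Odc1 values of 10.70 and 9.94 in control, 10.58 and 11.01 under HER2 DC1, 10.27 and 10.37 under the antibody, and 10.52, 10.84 and 10.85 under the combination. The treated tumors gave 10.63 and 10.62 in control, 11.03 and 11.10 under HER2 DC1, 10.53 and 10.42 under the antibody, and 10.48, 10.81 and 10.73 under the combination. The 2 treated tumors given HER2 DC1 alone were the highest of all 18 samples. They lay 0.44 (SE 0.25) above control, or 1.36-fold, without passing (limma, adjusted p = 0.416), beside 0.35 for the median over all genes. In untreated tumors the same difference was 0.48 (SE 0.25, adjusted p = 0.543), and the control of 9.94 was one of the shallow libraries. The combination differed from control by 0.42 (SE 0.23, adjusted p = 0.196) in untreated tumors, which passed without control replicate 1 (0.80, adjusted p = 0.046), when the shallow library was the only control left, and by 0.05 (SE 0.23, adjusted p = 0.876) in treated tumors. Centring each sample on the median of 462 genes turned the sign in untreated tumors to -0.05 (adjusted p = 0.889).

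The promoters of Ass1 and Odc1 are shown because both genes had their highest means under HER2 DC1 and, in treated tumors, no overlap there with control. The same lack of overlap held for 57.9% of all genes, and for Nos2 and Asl. They are RefSeq windows of GRCm38.p6, read 5′ to 3′ on the plus strand and ending at the base before the annotated gene, at chr2:31470020-31470269 for Ass1 (250 bases) and chr12:17544623-17544807 for Odc1 (185 bases). Capitals mark GC boxes (GGGCGG on either strand).
Ass1: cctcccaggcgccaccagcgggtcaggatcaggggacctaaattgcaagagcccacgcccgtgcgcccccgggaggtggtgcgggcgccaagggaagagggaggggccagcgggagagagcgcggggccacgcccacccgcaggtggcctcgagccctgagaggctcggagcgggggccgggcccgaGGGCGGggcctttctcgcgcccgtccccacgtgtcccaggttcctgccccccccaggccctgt
Odc1: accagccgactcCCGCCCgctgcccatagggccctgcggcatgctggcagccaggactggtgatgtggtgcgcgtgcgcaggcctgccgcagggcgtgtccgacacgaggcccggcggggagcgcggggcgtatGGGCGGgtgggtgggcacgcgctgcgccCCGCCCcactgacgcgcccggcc
Both windows are rich in G and C, at 75.6% for Ass1 and 77.8% for Odc1. The Ass1 window held 1 GC box, 63 to 58 bases before the gene, and the Odc1 window 3. Of 32851 mouse promoter windows cut to the same lengths, 32.7% (first 250 bases) and 21.8% (first 185 bases) hold at least 1. The cut at 185 bases is counted from the start of each window, so its distance to the gene can differ from that of Odc1. An E-box (CACGTG) lay 36 to 31 bases before Ass1, apart from its GC box, and none was found in the Odc1 window, where 6.02% and 3.88% of windows hold it. The TATA box (TATAAA, 12.4% and 8.55%) and a STAT motif (TTCNNNGAA, 7.02% and 5.38%), searched on both strands, had 0 matches in either window, which says only that these letters are not there.

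Asl (chr5:130011258-130024381), which splits argininosuccinate into arginine and fumarate, had the narrowest range of the 9, from 8.19 to 8.78 over the 18 samples. The untreated tumors gave Asl values of 8.19 and 8.43 in control, 8.57 and 8.46 under HER2 DC1, 8.39 and 8.36 under the antibody, and 8.44, 8.78 and 8.64 under the combination. The treated tumors gave 8.25 and 8.30 in control, 8.41 and 8.49 under HER2 DC1, 8.34 and 8.21 under the antibody, and 8.49, 8.63 and 8.70 under the combination. All combination samples were above the controls of their kind of tumor, by 0.33 (SE 0.17), or 1.26-fold, in treated and 0.31 (SE 0.17), or 1.24-fold, in untreated tumors, and neither passed (adjusted p = 0.128 and 0.182). The median gene of the panel shifted more, by 0.54 and 0.45, and with samples centred on the median of 462 genes, which lowers these differences by 0.47, Asl turned to -0.14 and -0.16 (adjusted p = 0.602 and 0.646). Centring on 20 housekeeping genes, which lowers them by 0.26, left 0.07 and 0.05.

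Otc (chrX:10252230-10321024), the liver and gut enzyme that makes citrulline, was dim in all 18 samples, between 2.62 and 4.25. In the combination arm it read 3.59, 4.07 and 4.25 in treated and 3.14, 2.92 and 2.84 in untreated tumors, a difference of 1.00 (SE 0.29) that passed at adjusted p = 0.0498, with no fold given since every value is under its limit. That call was lost in 13 of the 18 fits that leave out 1 sample. The other hepatocyte markers on the panel, Apoa1, Ttr and Cps1, were dim in every sample too.

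Oat (chr7:132557475-132576398), the mitochondrial aminotransferase that leads ornithine towards proline and glutamate, was higher in the mean of treated than of untreated tumors in each of the 4 arms. The untreated tumors gave Oat values of 8.20 and 7.08 in control, 7.01 and 8.17 under HER2 DC1, 8.07 and 8.55 under the antibody, and 8.32, 7.89 and 7.85 under the combination. The treated tumors gave 8.28 and 8.31 in control, 8.14 and 8.42 under HER2 DC1, 8.98 and 8.61 under the antibody, and 8.83, 8.80 and 8.65 under the combination. Treated exceeded untreated tumors by 0.65 (SE 0.39) in control, 0.69 (SE 0.39) under HER2 DC1, 0.49 (SE 0.39) under the antibody and 0.74 (SE 0.32) under the combination. The groups did not overlap in any arm but HER2 DC1, as for 43.9% of all genes in control, 36.3% under the antibody and 31.6% under the combination. Of the 4 differences 0 passed (limma, adjusted p = 0.737, 0.423, 0.999 and 0.134). The 2 lowest values, 7.08 and 7.01, again belonged to the 2 shallowest samples, and the other 16 lay between 7.85 and 8.98. Neither of these 2 is a combination sample, so without them the combination's difference stayed at 0.74, or 1.67-fold. The spread estimated over all groups changed, and the adjusted p was then 0.0381 (limma). Against control, Oat differed by 0.47 (SE 0.36, adjusted p = 0.318) under the combination in treated tumors, a sign that median centring turned to -0.005.

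**Figure D3:**
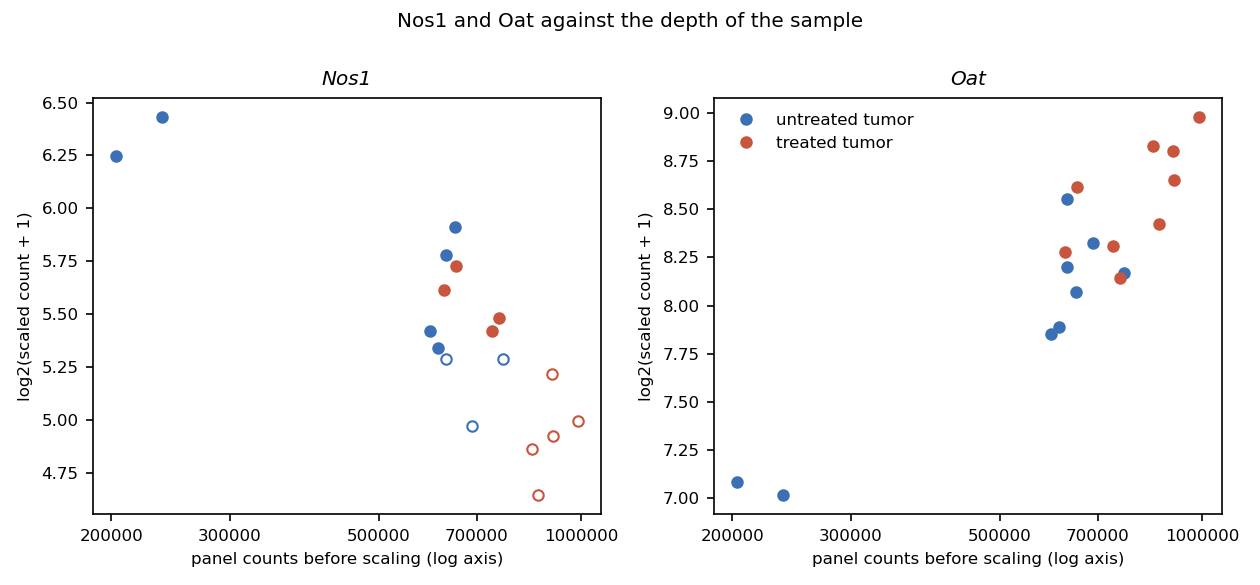
Nos1 and Oat, as log2(scaled count + 1), against panel counts before scaling on a log axis, with untreated tumors in blue, treated tumors in red and open points for samples not above the limit. The 2 samples at 203509 and 238079 counts hold the 2 highest values of Nos1 (6.25 and 6.43) and the 2 lowest of Oat (7.08 and 7.01).

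Other genes of the same routes were taken from lists chosen by function. Of 33 genes of arginine, polyamine, creatine and nitric oxide metabolism, 3 were on the panel beside the members. Gatm, which moves the amidino group of arginine to glycine for creatine synthesis, rose 3.25-fold under the combination in treated tumors, to 10.81 ± 0.94 (n = 3) from 9.11 ± 0.19 (n = 2; limma, adjusted p = 0.0101), and was 3.19-fold higher there than in untreated tumors of the combination (adjusted p = 0.0241). Without treated-tumor control replicate 1 the former had adjusted p = 0.08, and the latter was lost in 4 of the 18 fits that leave out 1 sample (adjusted p up to 0.112), with background subtracted (0.0633) and with only the groups compared (0.14). Srm, spermidine synthase, differed from control by 0.23 (SE 0.32, adjusted p = 0.589), and Cps1, the carbamoyl phosphate synthetase of the urea cycle, was dim in every sample.

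Of 9 genes reported that link ornithine and arginine to proline, glutamate, glutamine and aspartate, 2 rose, 0 fell and 7 did not pass under the combination in treated tumors, where 38.8% of all genes were called. The glutamate dehydrogenase Glud1 rose 2.16-fold (adjusted p = 0.00796) and the glutamine synthetase Glul 2.72-fold (adjusted p = 0.0331). The call of Glud1 was lost without control replicate 1 (adjusted p = 0.0768), and that of Glul in 4 of the 18 fits that leave out 1 sample (adjusted p up to 0.196). In untreated tumors 0 of the 9 passed (limma, lowest adjusted p = 0.0511), with 4 at an unadjusted p under 0.05, beside 37.9% of all genes. Median centring ended the calls of Glud1 (0.64, adjusted p = 0.0507) and Glul (0.97, adjusted p = 0.133). The list's median was 0.67 in treated and 0.57 in untreated tumors, beside 0.54 and 0.45 over all genes.

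Of 15 cytokines and transcription factors reported that are known to act on Arg1 or Nos2, 8 rose under the combination in treated tumors and 4 in untreated tumors, and 0 fell, beside 38.8% and 16.8% of all genes called. Irf1, an interferon-induced factor, rose 2.75-fold and 3.23-fold (adjusted p = 0.00762 and 0.0114), and the NF-kB subunit Rela 3.00-fold and 3.07-fold (adjusted p = 0.00258 and 0.00819). In treated tumors Stat6, which carries interleukin 4 signals, rose 1.98-fold (limma, adjusted p = 0.0128), and Il4 and Pparg also passed (adjusted p = 0.029 and 0.002). The means of Il4 and Pparg stood 1.63-fold and 1.204-fold over the limit of the dim controls. Il4 was above the limit in only 2 of the 18 samples, and Pparg in only 1. In untreated tumors Stat6 differed by 0.53, Il4 by 0.03 and Pparg by -0.003 without passing. The cytokine Tnf rose 3.18-fold (adjusted p = 0.00222), the NF-kB subunit Nfkb1 1.96-fold (adjusted p = 0.0059) and Stat3 2.10-fold (adjusted p = 0.00761) in treated tumors, and Tnf at least 2.58-fold (adjusted p = 0.00216) and Stat3 2.01-fold (adjusted p = 0.0257) in untreated tumors. The list's median was 1.01 and 0.39, beside 0.54 and 0.45 over all genes. Ifng, Il6 and Il10 were dim in every sample. All 4 calls in untreated tumors were lost without the shallow control replicate 2 (adjusted p from 0.0733 to 0.284), and in treated tumors Pparg, Tnf and Rela passed whichever 1 sample was left out. Median centring ended the calls of Stat6 (0.51, adjusted p = 0.0797) and Il4 (1.27, adjusted p = 0.081) in treated tumors and of Irf1 (1.22, adjusted p = 0.0605) and Stat3 (0.54, adjusted p = 0.0971) in untreated tumors. With only the scaled columns, which leave 1 control, 0 of the genes named from the 3 lists passed in treated tumors (adjusted p from 0.103 to 0.275). Macrophage, T cell and endothelial markers rose in the same comparison, as given above, Pparg also stands among the adipocyte markers and Cps1 among those of hepatocytes, and the part of those cells was not tested.

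**Figure D4:**
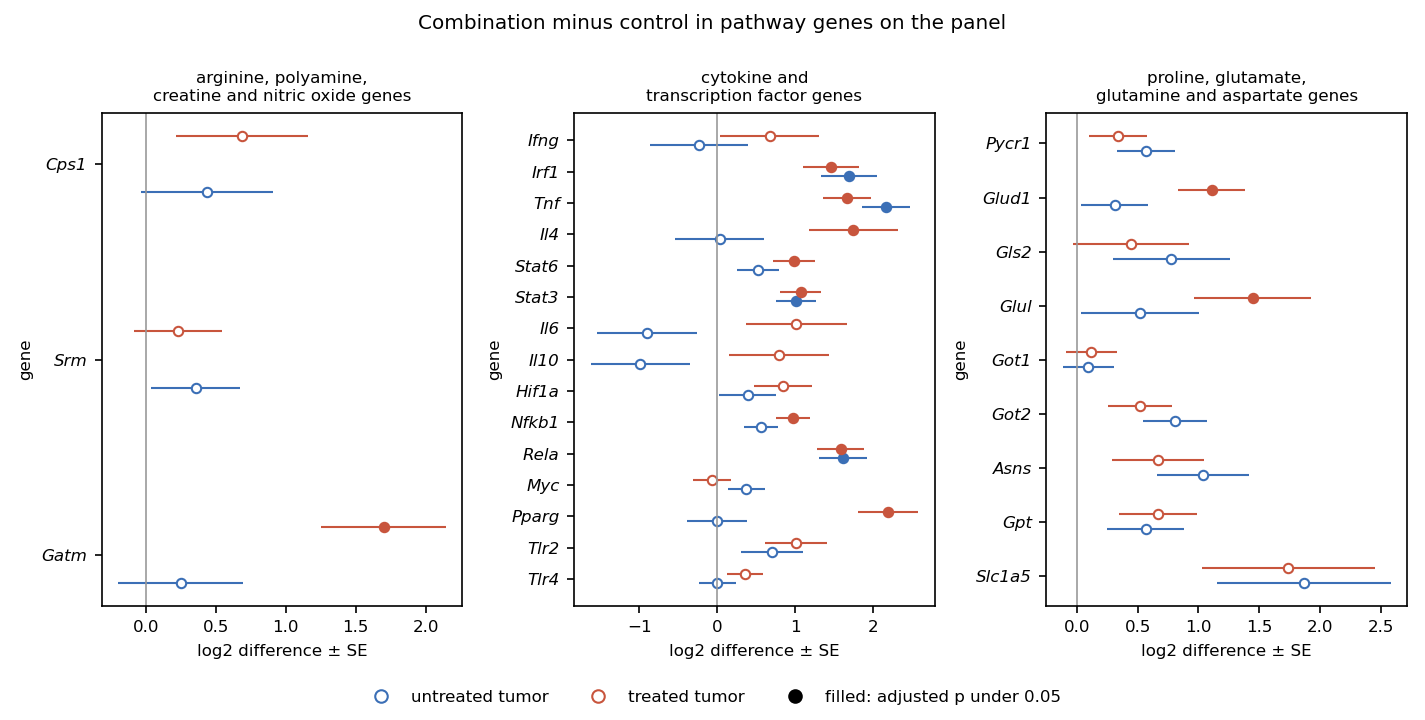
Combination minus control in log2 units, with bars of 1 SE, for the 27 genes reported from the 3 pathway lists, in untreated (blue) and treated (red) tumors, with filled points where the adjusted p is under 0.05. Gatm has a filled point in treated tumors only, at 1.70, and Rela in both, at 1.58 and 1.62.

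For each of the 6 members above the limit in at least 9 samples, the 3 genes with the highest Spearman correlation were sought among 633 genes over the 18 samples, which share the authors' scaling and the groups. For Arg1 they were Rps6ka1 (0.81), Gpx1 (0.81) and Cd163 (0.81), for Nos1 Glyat (0.88), Ms4a1 (0.85) and Slc16a8 (0.84), and for Ass1 Aoc1 (0.66), Upp1 (0.66) and Vegfa (0.65). A gene above the limit in any sample could be among the 633, and Cd163 was above it in only 4 of the 18. Asl lay nearest to Nfe2l2 (0.95), Slc2a6 (0.93) and Irf1 (0.89), Oat to Map1lc3b (0.90), Vps28 (0.88) and Jak2 (0.86), and Odc1 to Tfrc (0.88), Dck (0.86) and Pgk1 (0.85). Without the 3 treated-tumor combination samples the values for Arg1 were 0.738, 0.725 and 0.715, and that of Asl with Nfe2l2 was 0.96. Among the members themselves the highest value was that of Ass1 with the dim Otc (0.75), followed by Nos2 with Odc1 (0.72) and Arg1 with Oat (0.66), and the lowest was that of Nos1 with Oat (-0.70).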

How the data were processed

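RNA of 18 flash-frozen tumors was counted on a NanoString panel of 782 probes, 768 of them genes. The authors deposited log2 values. Per the submitters' processing notes limma is the only tool named. Its role and version, and whether background was subtracted, were not given in the sources used. From the values, 12 columns are counts times 1 factor (0.736 to 2.58) plus 1, with scaled counts under 1 listed as 1, and 6 columns hold whole numbers. For these 6, counts before scaling assume a factor of 1.

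The deposited values were fitted unscaled by limma 3.58.1 under R 4.3.3 as 8 group means over 18 samples, and p-values were adjusted (Benjamini-Hochberg) over 768 genes within each of 19 comparisons, at a threshold of 0.05. The fit had 10 residual degrees of freedom, and was tested on simulated data. Python 3.11.15 handled tables. Where all samples of a group are dim, "at least N-fold" or "N-fold over the limit" sets the brighter group's mean against, in each dim sample, the higher of limit and value. Values of the brighter group enter as they stand, and where some of them are dim the fold is not a lower bound. No fold is given where both groups are dim or the bound is under 1. Folds come from log2(count + 1) values, which shrinks those of low genes, and counting intervals cover counting error only. Centring on 462 genes above the limit everywhere or on 20 housekeeping genes lowers differences by 0.47 or 0.26 for the combination against control in both kinds of tumor.

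All 9 members were named. From each of 3 pathway lists, up to 8 genes past the threshold per comparison were named by smallest p, and counts cover the lists' genes on the panel, dim ones included, save a few that are not reported here. There were also 10 lists of cell type markers. Members and lists were chosen with earlier results of these data known. Gene places and promoters come from RefSeq (GRCm38.p6), where 767 of 768 symbols matched. The sources used do not say where in its gene a probe binds. Alternatives were other centrings, filters, pseudocounts, blocks, left-out samples and, added after seeing the data, scaled columns only and leaving out the 2 shallowest samples.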

Additional observations from a re-analysis of the deposited data

How the results depend on the processing

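The count of members past the threshold for the combination against control in treated tumors, 1 as reported, was 0 with dim genes filtered (Nos3 is then not tested) and with scaled columns only, 2 with background subtracted (Asl and Nos3) and 3 with column kind as a block (Nos2, Nos3 and Otc). In untreated tumors it went from 0 to 1 with background subtracted (Asl). Against the antibody in treated tumors it went from 1 to 0 with the filter or scaled columns only, and to 2 with background subtracted (Asl and Nos3), with column kind as a block, or without the 2 shallowest samples (Nos2 and Nos3). Between treated and untreated combination tumors it went from 2 to 1 with median or housekeeping centring, and to 0 with the filter, background subtracted, only the groups compared or scaled columns only. Leaving out 1 sample at a time gave 0 to 3, 0 to 1, 0 to 3 and 0 to 3 for these 4 comparisons, 0 to 1 for the combination against HER2 DC1 in treated tumors, and 0 in the other 14. Median centring turned the sign of Asl for the combination against control (-0.14 in treated and -0.16 in untreated tumors) and against the antibody in treated tumors (-0.20), and that of Odc1 against control in untreated tumors (-0.054). For Ass1 against the antibody in treated tumors, -0.17 as reported, left-out samples gave -0.30 to 0.046, and median centring gave -0.71, which passed (adjusted p = 0.022) while Nos3 did not, so that count stayed at 1 with another gene. The causes were not tested, save that the filter and the left-out samples test fewer genes or samples. Of 171 member differences 81 turned sign or became exactly 0 in some left-out fit, and 90 did so under some other setting. With background subtracted, for example, the difference of Otc between treated and untreated combination tumors was 0.

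Replicate numbers recur in the groups. Deviations of same-numbered treated and untreated samples correlated at -0.08 in control, 0.71 under HER2 DC1 and 0.62 under the antibody. With 2 samples a group, each of these arms gives only 1 value. Under the combination the correlations were 0.30, -0.18 and 0.08. In all arms but the combination, replicate number went with the kind of column, whole or scaled. Their correlations cannot tell pairing from column kind, so the numbers were not shown to pair samples. With the replicate block the count was 2 against the antibody in treated tumors and 1 (Nos3) between the kinds of combination tumor, and with arm by number as a random block it was 2 in the former and 3 (Arg1, Nos3 and Otc) in the latter. There, a pseudocount of 16 and trend and robust estimation each called Arg1 and Nos3, and not Otc. With 2 or 3 samples a group, and limits of 4.95 to 5.85, differences in Nos1, Nos2, Nos3 and Otc rest on counts near background. Raising the limit to 3 SD lowered the median number of members above it from 6 to 5.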
